A study of Mus musculus with 16 samples.

Results

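The oligosaccharyltransferase (OST) subunits were examined as a group of 9 genes around Stt3a, whose 3′-UTR gave a high ratio of wild-type (WT) over knockout (KO) reads in RNA-immunoprecipitation and sequencing (RIP-seq) of the RNA-binding protein CPEB4. The genes were Stt3a, Stt3b, Rpn1, Rpn2, Ddost, Dad1, Ostc, Magt1 and Tusc3, taken by symbol from the 14925 genes with a symbol. They held 17 of 30622 3′-UTR rows, at 16 distinct positions. Stt3a was chosen by its WT over KO RIP ratio after lipopolysaccharide (LPS), and the others because they belong to the same complex. Every comparison with a RIP library of LPS-treated cells is therefore given as a description with no test.

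The cells were bone marrow-derived macrophages (BMDMs), grown with M-CSF from the femurs of adult mice of the strain given as C57BL/6J 129. One culture, numbered 76, was labelled CPEB4 WT, and the other, numbered 73, CPEB4 KO, and the methods describe the KO animals as lacking CPEB4 in the whole body. Each was left untreated or given 10 ng/ml LPS, a component of the bacterial outer membrane, for 9 h. RNA recovered with an antibody against CPEB4 (RIP) and RNA of the lysate (Input) gave 8 libraries, each run on lanes 7 and 8, and the deposited columns hold the summed lanes. There was thus 1 library for each genotype, treatment and assay, and no difference below has a replicate check. The tests and 95% intervals compare the reads of 2 libraries, not 2 conditions, and cover counting error only.

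OST is the enzyme complex of the endoplasmic reticulum (ER) membrane that transfers a preassembled sugar chain from a lipid carrier to asparagine residues of new proteins, which is the start of N-glycosylation. Mammalian cells build it around either of the catalytic subunits STT3A, which works beside the translocon while a protein is still being made, and STT3B, which also acts on sites that STT3A has passed over. RPN1, RPN2, DDOST and DAD1 are shared by both forms, OSTC belongs to the STT3A form and helps to hold it at the translocon, and MAGT1 or its relative TUSC3 serves the STT3B form as an oxidoreductase. Macrophages make many glycoproteins for their surface and for secretion, among them Toll-like receptors. CPEB4 is known to bind CPEs (cytoplasmic polyadenylation elements), which are U-rich motifs in 3′-UTRs that work together with the polyadenylation hexamer.

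The 3′-UTR sequences around the members' motifs are shown first, because CPEs are the elements that CPEB4 is known to bind. Each line below holds 30 bases of the GRCm38.p6 reference (the assembly of mm10), written 5′ to 3′ on the strand of the gene. Capitals mark the CPE nearest to the 3′ end of the region, taken from TTTTAT and TTTTAAT (called canonical here) where the region had such a motif and otherwise from the other forms searched, which were TTTTGT and the longer forms TTTTACT and TTTTCAT, with TTTTAAAT and also TTTTAAGT. Only the gene's own strand was searched, and matches may overlap.
Stt3a, 344-base region (chr9:36732426-36732455, - strand): tgcttaataaatTTTTATcaaatgaataaa
Ostc (chr3:130696193-130696222, - strand): tttttcttagttTTTTATttcttaaagaaa
Rpn1 (chr6:88105227-88105256, + strand): gaaatcaatactTTTTAATatctgcaagcc
Stt3b (chr9:115242718-115242747, - strand): gcagtgtgtcccTTTTATgaagaacccgtc
Magt1 (chrX:105968160-105968189, - strand): ttcattatgtatTTTTAATatactgttcaa
Rpn2 (chr2:157326279-157326308, + strand): gaagggttaaaaTTTTGTcaataaaaagct
Ddost (chr4:138312502-138312531, + strand): gatctgatgcccTTTTGTggcctcccagga
In the 344-base region of Stt3a the motif lies between a pair of AATAAA hexamers and ends 12 bases before the end of the region. That region stops with the last base of a hexamer and is part of a longer Stt3a region of 3580 bases. In the longer region the same motif ends 3094 bases before the end. The canonical CPE nearest to that end is 1168 bases away, while a match to the other forms ends 44 bases before it. The distance for Stt3a thus depends on the region and on the forms used. In Rpn2 the TTTTGT motif ends 23 bases before the end of the region, just upstream of a hexamer. In Rpn1 the distance from the motif to the end was 59 bases, in Magt1 87, in Ddost 109, in Stt3b 123 and in Ostc 284.

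The annotated position of each region decides what its reads can come from. Where a gene had several regions, the most read one is called its lead region. The lead region of Stt3a (chromosome 9, 36729344 to 36732923, - strand) was 3580 bases long and is the 3′-UTR part of the last exon of transcript Stt3a-201 in GENCODE M21. A region of 344 bases (36732426 to 36732769), annotated to Stt3a-204, is nested in it from base 155 to base 498, so its reads are also counted in the lead region. A further Stt3a region of 107 bases (36752330 to 36752436) is 3′-UTR in the nonsense-mediated decay transcript Stt3a-202, and all 107 of its bases are coding in another Stt3a transcript. The lead regions of Stt3b (chromosome 9, 115242607 to 115243964, - strand, 1358 bases), Rpn1 (chromosome 6, 88103548 to 88105304, + strand, 1757 bases), Rpn2 (chromosome 2, 157325724 to 157326319, + strand, 596 bases), Ddost (chromosome 4, 138311984 to 138312628, + strand, 645 bases), Ostc (chromosome 3, 130695921 to 130696459, - strand, 539 bases) and Dad1 (chromosome 14, 54235479 to 54235713, - strand, 235 bases) are each 3′-UTR exons with no coding base. Magt1 had a lead region of 3380 bases (chromosome X, 105968084 to 105971463, - strand), a region of 2943 bases that lies inside it, and a region of 549 bases nested in both. The lead region of Tusc3 (chromosome 8, 39164842 to 39165112, + strand) had 271 bases. In the region of Rpn1, 131 bases are also an exon of the microRNA gene Mir6376 on the opposite strand, and as the strand of counting is not given in the sources used here, reads of Rpn1 and of Mir6376 cannot be told apart there.

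The lead regions differed in their motif content. Canonical CPEs were found in the regions of Stt3a (5), Stt3b (6), Rpn1 (3), Ostc (1) and Magt1 (7), and in none of the lead regions of Rpn2, Ddost, Dad1 and Tusc3. Rpn2 had 1 match, Ddost 4 and Tusc3 1 to the other forms, and Dad1 had no match at all. Of the 26860 distinct regions of the series 47.4% held a canonical CPE, and longer regions held them more often, so each share is best read at like length, from 80% to 125% of that of the region itself. Within that range a canonical CPE stood in 28.5% of 2757 regions like the 344-base region of Stt3a, which had 2, and in 92.4% of 1667 regions like its lead region. It stood in 41.4% of 3071 regions like that of Ostc, 69.4% of 3680 like that of Stt3b, 78.4% of 3490 like that of Rpn1, 91.3% of 1883 like that of Magt1 and 21.2% of 2328 like that of Dad1. A match is a string of letters in the reference and not a measured binding site. The CPE predictions deposited with the files gave early strong activation for the 344-base region of Stt3a and for Rpn1, repression for Stt3b, and both early weak activation and repression for Magt1, and none for the 3580-base region of Stt3a or for Ostc, Ddost, Dad1, Rpn2 and Tusc3.

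**Figure D1:**
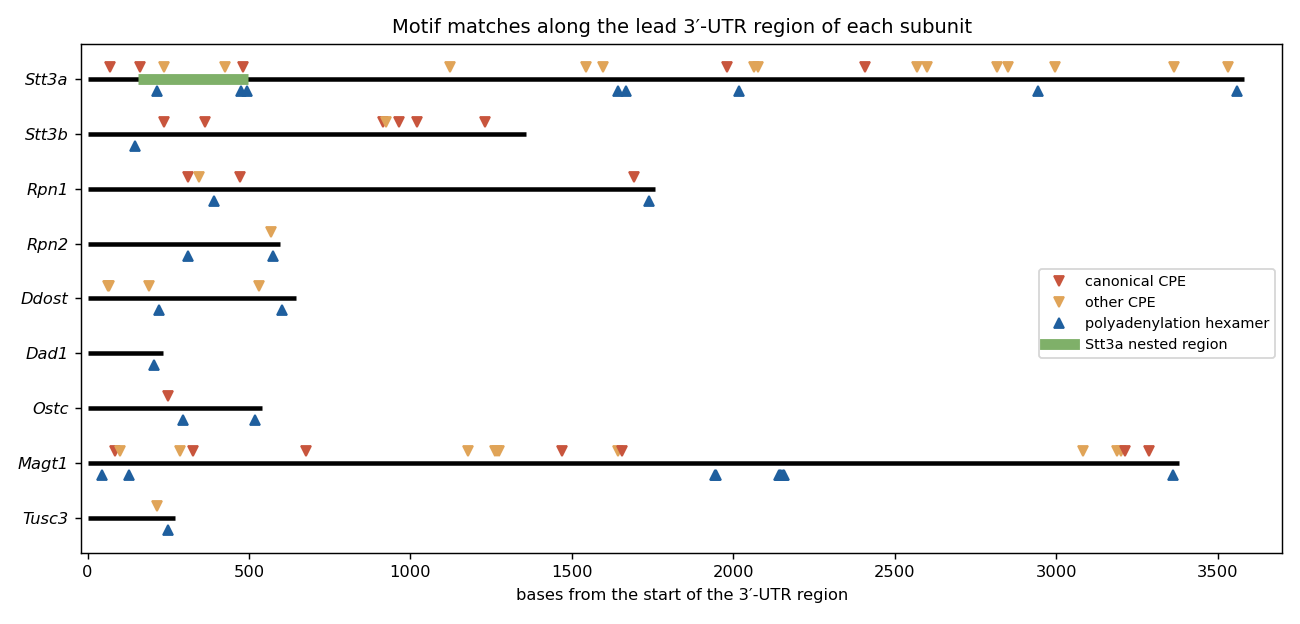
Motif matches along the lead 3′-UTR region of each subunit, in bases from the start of the region. Downward triangles above a line are canonical CPEs (red) and other CPE forms (orange), upward triangles below it are the hexamers AATAAA and ATTAAA (blue), and the green bar is the nested Stt3a region of 344 bases. Stt3a and Magt1 have the longest regions with the most matches, and Dad1 has no CPE match.

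Summed over rows, the libraries held from 467696 (KO RIP, untreated) to 2492300 (WT RIP, LPS) 3′-UTR reads. A read in overlapping or repeated rows is counted in each of them. Levels are given as CPM, the reads scaled to 1000000 of these summed reads, with 95% Wilson intervals. Cpeb4 itself was at 130 and 136 CPM in the WT Inputs and at 52.0 and 52.6 CPM in the KO Inputs. Its 3′-UTR was thus lower in the KO but still read, and the part of the gene removed by the deletion is not given in the sources used here. In the RIPs Cpeb4 was at 836 (WT) and 257 (KO) CPM untreated and at 770 (WT) and 367 (KO) CPM with LPS. The KO RIPs, against which the WT RIPs are compared below, thus lay above the KO Inputs for Cpeb4, and the cause was not tested. All 9 macrophage markers, such as Csf1r, Lyz2 and Itgam, had reads in every library, with a summed level of 1783 to 4554 CPM. The 7 LPS response genes, Tnf and Nos2 among them, summed to between 49.2 and 78.6 CPM in the untreated libraries and to between 2664 and 4047 CPM after LPS. Of 17 markers of other cell types of bone marrow, 10 had a row, no more than 1 of them (Pecam1) passed 3 reads in any library, and their summed level was at most 16.6 CPM. In these bulk samples fewer cells and less RNA per cell cannot be told apart. The labels give depletion of ribosomal RNA for the Inputs alone.

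Stt3a had more reads in the WT RIPs than in any other library. Its lead region had 44 reads in the WT Input and 99 in the KO Input of untreated cells, and 103 and 71 in those of LPS-treated cells. The RIPs had 196 reads (WT) and 30 (KO) untreated, and 313 (WT) and 28 (KO) with LPS. In order of level the libraries were the WT RIP with LPS at 126 CPM (112 to 140), the WT RIP untreated at 118 (102 to 135), the untreated KO Input at 74.7 (61.3 to 90.9), the untreated KO RIP at 64.1 (44.9 to 91.6), the WT Input with LPS at 54.3 (44.8 to 65.8), the untreated WT Input at 47.4 (35.3 to 63.6), the KO Input with LPS at 47.3 (37.5 to 59.6) and the KO RIP with LPS at 32.1 (22.2 to 46.4). Both WT RIPs lay above the other 6 libraries with intervals that did not overlap theirs. Every other pair of neighbours in this order had overlapping intervals.

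The paralog Stt3b, the other catalytic subunit, stayed within a narrow range. Its lead region had 69 and 97 reads in the untreated Inputs (WT, KO), 84 and 70 in the LPS Inputs, 113 and 26 in the untreated RIPs and 139 and 36 in the LPS RIPs, which came to between 41.3 CPM (KO RIP with LPS) and 74.3 CPM (untreated WT Input). The WT RIPs of Stt3b, at 67.8 and 55.8 CPM, lay within the range of its Inputs, 44.3 to 74.3 CPM.

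Of the shared subunits, Rpn1 was the one with the pattern nearest to Stt3a. Rpn1 had 68 and 97 reads in the untreated Inputs (WT, KO), 115 and 62 in the LPS Inputs, 186 and 26 in the untreated RIPs and 198 and 11 in the LPS RIPs. Its KO RIP with LPS, at 12.6 CPM (7.05 to 22.6), lay below all its other libraries, and its untreated WT RIP, at 112 CPM, lay above them. Rpn2 ran the other way, with 19 and 35 reads in the untreated Inputs, 39 and 15 in the LPS Inputs, 26 and 19 in the untreated RIPs and 27 and 28 in the LPS RIPs. Its KO RIPs were the highest of the 8 libraries, at 40.6 CPM (26.0 to 63.5) and 32.1 CPM (22.2 to 46.4), against 15.6 (10.7 to 22.9) and 10.8 (7.45 to 15.8) in the WT RIPs, and at each treatment the intervals of WT and KO did not overlap. Ddost, the subunit also known as OST48, had 49 and 61 reads in the untreated Inputs, 84 and 64 in the LPS Inputs, 66 and 7 in the untreated RIPs and 86 and 20 in the LPS RIPs. Both KO RIPs of Ddost, at 15.0 and 22.9 CPM, lay below its other libraries, which spanned 34.5 to 52.7 CPM. The interval of the KO RIP with LPS (14.9 to 35.4) overlapped those of both WT RIPs and of the KO Input with LPS, and that of the untreated KO RIP (7.25 to 30.9) overlapped that of the WT RIP with LPS. Dad1, named as a defender against cell death, had 51 and 58 reads in the untreated Inputs, 97 and 65 in the LPS Inputs, 35 and 13 in the untreated RIPs and 37 and 26 in the LPS RIPs. Its 4 RIPs, at 14.8 to 29.8 CPM, were all below its 4 Inputs, at 43.3 to 54.9 CPM.

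Ostc, of the STT3A form, had the highest RIP levels of the 9 lead regions per length, with 300.1 CPM per kilobase of region in the untreated WT RIP and 303 in the WT RIP with LPS. Its reads were 30 and 39 in the untreated Inputs (WT, KO), 69 and 68 in the LPS Inputs, 319 and 26 in the untreated RIPs and 482 and 69 in the LPS RIPs. The WT RIPs reached 191 CPM (172 to 214) and 193 CPM (177 to 211), the KO RIPs had 55.6 (37.9 to 81.5) and 79.2 (62.6 to 100.2), and the Inputs had 29.4 to 45.3 CPM. All 4 RIPs of Ostc were above its 4 Inputs. Magt1, of the STT3B form, had 93 and 157 reads in the untreated Inputs, 177 and 137 in the LPS Inputs, 284 and 86 in the untreated RIPs and 426 and 105 in the LPS RIPs. Its levels in the RIPs were 170 CPM (WT) and 184 CPM (KO) untreated and 171 and 120 CPM with LPS, and in its Inputs 91.2 to 118 CPM, so that Magt1 was high in the RIPs of both genotypes. Tusc3 had between 2 and 12 reads in a library, 43 over the 8 libraries, and its ratios have wide intervals.

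Per length of the lead region, Dad1 was the most abundant member in the untreated WT Input. CPM per kilobase of region plus 99 bases (a read of 100 bases counts with any overlap) came to 164 (125 to 216) for Dad1, 70.9 (53.6 to 93.7) for Ddost, 51.0 (40.3 to 64.5) for Stt3b, 50.6 (35.5 to 72.3) for Ostc, 39.4 for Rpn1, 29.4 (18.8 to 46.0) for Rpn2, 28.8 (23.5 to 35.2) for Magt1, 12.9 (9.59 to 17.3) for Stt3a and 8.73 (2.97 to 25.7) for Tusc3. Only the steps from Dad1 to Ddost and from Magt1 to Stt3a were between intervals that did not overlap. The 344-base region of Stt3a stood at 43.7 (27.7 to 69.1) on this scale and the longer region that holds it at 12.9. The 107-base region of Stt3a, coding in another transcript, stood at 88.8 (55.5 to 142). For Dad1 the 3077-base region stood at 10.5 (7.40 to 14.9). The places of Stt3a and Dad1 in the order thus depend on the region that is used.

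**Figure D2:**
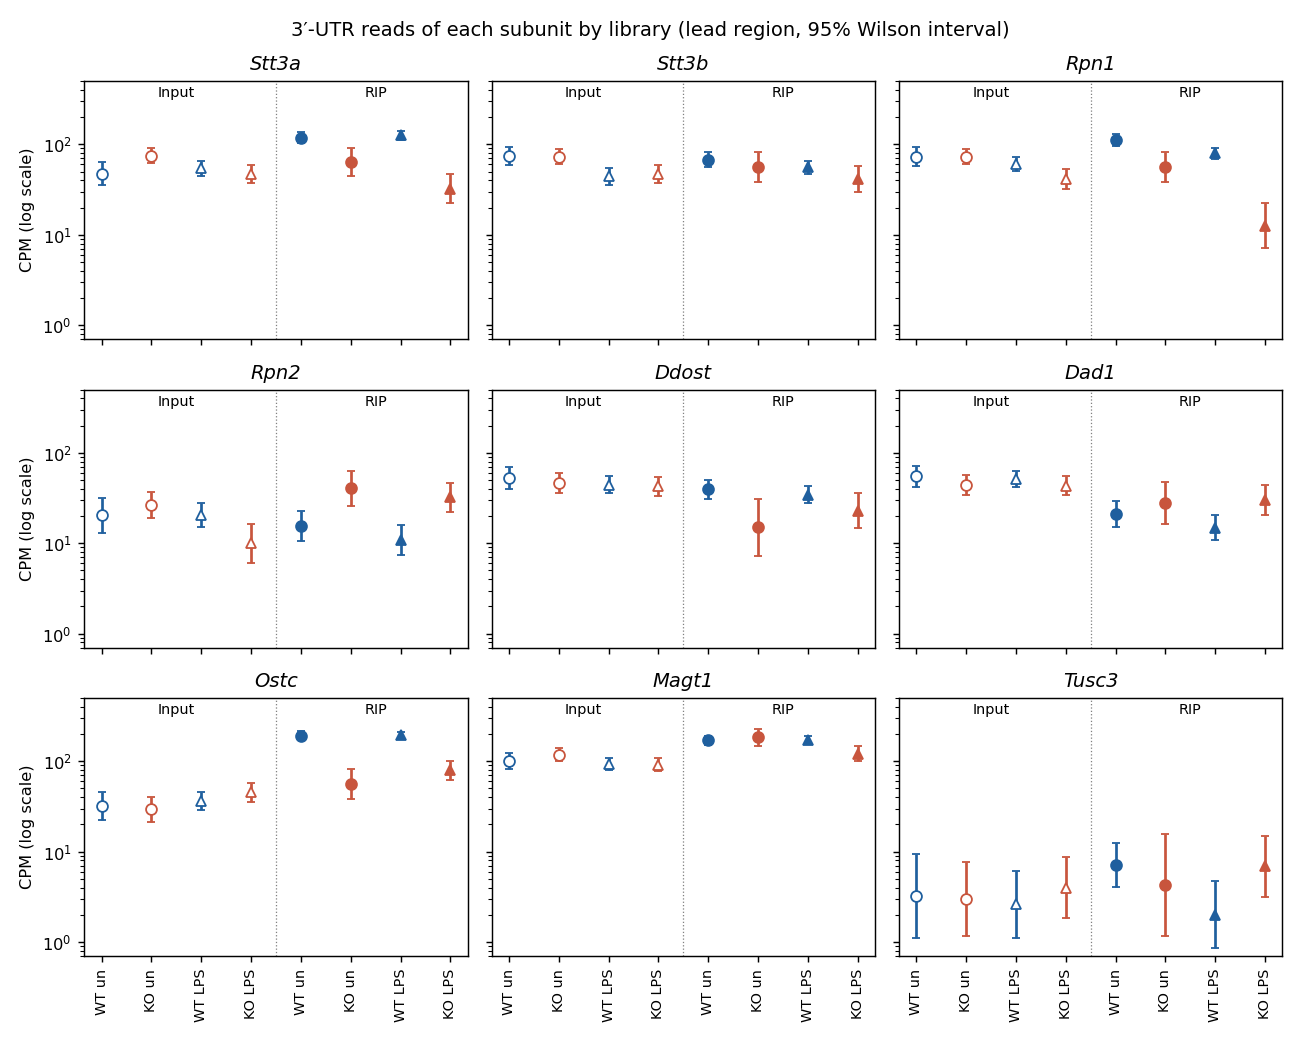
Level of the lead 3′-UTR region of each subunit in the 8 libraries, in CPM of 3′-UTR reads on a log scale, with 95% Wilson intervals. Blue is WT and red is KO, circles are untreated (un) and triangles LPS, open symbols are Inputs and filled symbols RIPs. The WT RIPs of Stt3a (118 and 126 CPM) and Ostc (191 and 193 CPM) lie above their Inputs and KO RIPs, and the KO RIPs of Rpn2 (40.6 and 32.1 CPM) lie above its WT RIPs.

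To ask which subunit mRNAs were recovered with CPEB4 in resting cells, the untreated WT RIP was compared with the untreated RIP of the KO culture. Ostc and Ddost were higher in the WT and Rpn2 was lower, though Ddost was not higher in the WT RIP than in the WT Input. Stt3a and Rpn1 lay at a log2 ratio near 1 without passing the call. A region was called in a two-sided chi-square test of its reads against all other 3′-UTR reads, with at least 10 reads in the pair, at a Benjamini-Yekutieli adjusted p below 0.02 and a log2 ratio beyond 0.5, or at an unadjusted p below 0.02 and a log2 ratio beyond 1.2. Of the 9 members tested, 2 were called higher and 1 lower, and 5 had an unadjusted p under 0.05. The share of all genes under that p was not computed, so the 5 are not a result about the members. Among all 8086 genes tested, 6.91% were called higher and 11.4% lower, 18.2% in either direction.

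The log2 ratio of Ostc was 1.73 (1.17 to 2.30, adjusted p = 6.94e-08), a fold of 3.33. Ddost had 1.23 (0.18 to 2.29) and was called by its unadjusted p of 0.0109, from 7 reads in the KO RIP. Its log2 ratio of RIP over Input was -0.42 (-0.95 to 0.11) in the untreated WT and -1.45 (-2.51 to -0.39) in the untreated KO. The WT over KO ratio of Ddost thus goes with a low KO RIP and not with a WT RIP above its Input. Rpn2, with 26 WT and 19 KO reads, had -1.40 (-2.23 to -0.57) and was called lower by its unadjusted p of 0.000995. Rpn1 had 0.96 (0.38 to 1.54, adjusted p = 0.0578). Stt3a had 0.84 (0.29 to 1.38, adjusted p = 0.119) in its lead region and 1.04 (0.26 to 1.82) in its 344-base region. Stt3b had 0.25 (-0.36 to 0.85), Tusc3 0.28 (-1.53 to 2.09), Magt1 -0.12 (-0.47 to 0.23) and Dad1 -0.47 (-1.36 to 0.42). The median of the 9 lead regions was 0.28, against -0.10 over 8065 lead regions.

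Stt3a was then set against each other subunit in this contrast, with the interval of the difference of the log2 ratios. It was higher than Rpn2 by 2.23 (1.24 to 3.23), than Dad1 by 1.31 (0.26 to 2.35) and than Magt1 by 0.96 (0.31 to 1.60). Its difference from Ostc was -0.90 (-1.69 to -0.11). The differences from Stt3b (0.59, -0.23 to 1.41), Rpn1 (-0.12, -0.92 to 0.67), Ddost (-0.40, -1.59 to 0.79) and Tusc3 (0.55, -1.34 to 2.44) had intervals that held 0. A difference between Stt3a and its paralog was not detectable at this depth in the resting RIPs.

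The calls depended on the scaling and on the variation allowed for. The study set its cut-offs on fold changes of RPKM, and the deposited RPKM are scaled to library totals. Relative to the 3′-UTR totals used here, TMM scaling raises every log2 ratio of this contrast by 0.23, median-of-ratios scaling by 0.11 and library totals by 0.84, and the members called then became 4 higher and 0 lower, 3 and 1, and 6 and 0. Of all genes tested 19.4%, 18.6% and 35.2% were called under these scalings, against 18.2% as reported. TMM turned the ratio of Magt1 from -0.12 to 0.11, and library totals turned it to 0.72 and that of Dad1 from -0.47 to 0.37. Rpn2 lost its call with TMM, with library totals and where a pair had to hold 50 reads or more, while Stt3a gained one with TMM, with library totals and with Benjamini-Hochberg adjustment. In edgeR's exact test with a preset coefficient of variation of 0.2 between replicates, which no replicate here can check, Ostc was the only member called, and with 0.4 none was. Of all genes tested, 7.63% were called at 0.2 and 0.655% at 0.4.

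With LPS, the contrast that led to Stt3a, the ratios of Rpn1 and Stt3a were larger. As a description, the log2 ratio of WT over KO RIP was 2.54 (1.70 to 3.38) for Rpn1, 1.92 (1.37 to 2.47) for Stt3a and 1.27 (0.91 to 1.63) for Ostc. Among the 5179 lead regions holding 50 or more reads across both libraries, Rpn1 ranked 6, Stt3a 33 and Ostc 247 from the highest. The 344-base region of Stt3a had 158 WT and 8 KO reads, a log2 ratio of 2.63 (1.66 to 3.60). Ddost had 0.53 (-0.15 to 1.22), Magt1 0.49 (0.19 to 0.80) and Stt3b 0.40 (-0.12 to 0.93). On the other side were Dad1 at -1.02 (-1.73 to -0.31), Rpn2 at -1.57 (-2.32 to -0.82) and Tusc3 at -1.74 (-3.31 to -0.17), the last from 5 and 6 reads. Library totals raise all these ratios by 1.14, TMM by 0.34 and median-of-ratios by 0.16, and with library totals that of Dad1 turned to 0.12. From untreated to LPS the log2 ratio within the KO RIPs was -2.07 (-3.05 to -1.09) for Rpn1 and -0.99 (-1.73 to -0.26) for Stt3a, and within the WT RIPs -0.49 (-0.78 to -0.20) for Rpn1 and 0.09 (-0.17 to 0.35) for Stt3a. The KO RIPs had 26 and 11 reads of Rpn1 and 30 and 28 of Stt3a, so these 4 counts carry most of the counting error.

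**Figure D3:**
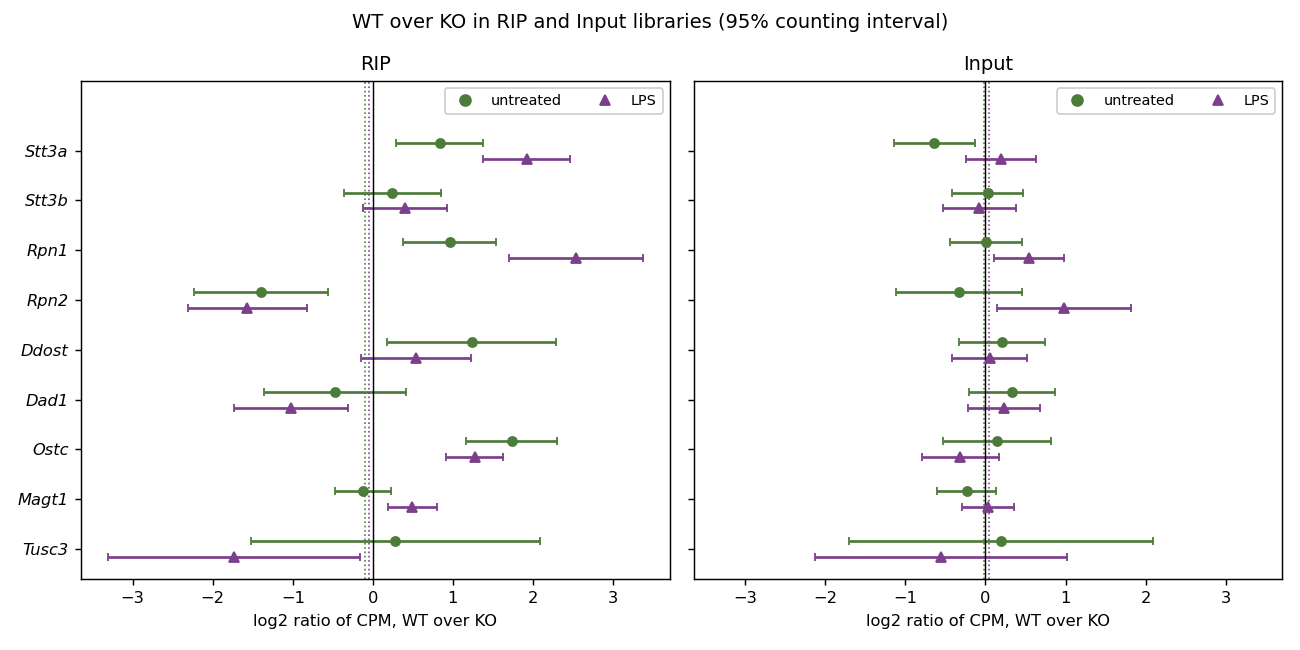
Log2 ratio of WT over KO CPM for the lead region of each subunit in the RIPs and in the Inputs, with 95% counting intervals. Circles are untreated and triangles LPS, and dotted lines mark the medians of all lead regions. In the RIPs Stt3a, Rpn1 and Ostc lie to the right of 0 and Rpn2 to the left under both treatments, and the Input ratios lie nearer to 0.

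In the Inputs no member was called between the genotypes, of 8 tested untreated and 9 with LPS. By the chi-square test 2 members had an unadjusted p under 0.05 at each treatment, for which the share of all genes was not computed. The edgeR exact tests and the other alternatives also called 0 members. Among all genes 1.13% were called higher and 1.68% lower untreated (2.82% in all), and 1.74% higher and 1.58% lower with LPS (3.32% in all). The untreated Input ratio of Stt3a was -0.64 (-1.15 to -0.13, unadjusted p = 0.0113), lower in the WT, and with LPS it was 0.19 (-0.24 to 0.63). Its untreated Input ratio was lower than that of Ddost by 0.84 (-1.58 to -0.10 for Stt3a minus Ddost) and than that of Dad1 by 0.97 (-1.71 to -0.23 for Stt3a minus Dad1), and the other 6 differences had intervals that held 0. With LPS, Rpn2 had 0.99 (0.15 to 1.82) and Rpn1 0.54 (0.10 to 0.99), both higher in the WT Input without a call. Subtracting the Input ratio from the RIP ratio gave 1.47 (0.73 to 2.22) for Stt3a, 1.59 (0.71 to 2.47) for Ostc, 0.95 (0.22 to 1.68) for Rpn1 and 0.22 (-0.53 to 0.97) for Stt3b in untreated cells. Ddost had 1.03 (-0.16 to 2.22) untreated, an interval that held 0. For Rpn2 the same difference was -1.06 (-2.21 to 0.08) untreated and -2.55 (-3.67 to -1.43) with LPS. With LPS it was 1.73 (1.03 to 2.43) for Stt3a, 1.59 (0.99 to 2.19) for Ostc and 1.99 (1.04 to 2.94) for Rpn1, as a description.

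RIP was next compared with Input within each culture, which sets the recovered RNA against its own lysate. In the untreated WT, Ostc, Stt3a and Magt1 were higher in the RIP and Dad1 was lower, and the short region of Stt3a that is coding in other transcripts was lower too. Of 9 members tested, 3 were thus called higher and 2 lower, Stt3a being called in both directions by different regions, where 24.7% of all 8372 genes were called higher and 22.8% lower, 47.2% in either direction. The share of members called in either direction was near that of all genes. The log2 ratio of RIP over Input was 2.53 (1.99 to 3.06, adjusted p = 8.72e-24) for Ostc, 1.29 (0.82 to 1.75, adjusted p = 1.07e-06) for Stt3a, 0.76 (0.42 to 1.09, adjusted p = 0.000282) for Magt1 and -1.37 (-1.99 to -0.76, adjusted p = 0.000239) for Dad1. Rpn1 had 0.60 (0.20 to 0.99, adjusted p = 0.0679), Stt3b -0.14 (-0.57 to 0.29), Ddost -0.42 (-0.95 to 0.11) and Rpn2 -0.41 (-1.24 to 0.42). With a preset coefficient of variation of 0.4 in edgeR's exact test only Ostc was called. Stt3a was higher than Stt3b in this ratio by 1.43 (0.79 to 2.06), than Rpn1 by 0.69 (0.08 to 1.31), than Rpn2 by 1.70 (0.74 to 2.65), than Ddost by 1.71 and than Dad1 by 2.66, and its difference from Ostc was -1.24 (-1.95 to -0.53). The difference from Magt1, 0.53 (-0.05 to 1.11), had an interval that held 0.

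In the untreated KO no member was called higher in the RIP, where 15.9% of 7716 genes were, and 2 of 8 members, Ddost at -1.45 (-2.51 to -0.39) and Dad1 through its 3077-base region at -1.30 (-2.54 to -0.07), were called lower, where 9.6% of genes were (25.4% in either direction). In either direction the share of members called was near that of all genes in the KO too. Ostc at 0.94 (0.23 to 1.64) and Magt1 at 0.64 (0.27 to 1.02, adjusted p = 0.0513) did not pass the call there. Stt3a had -0.19 (-0.77 to 0.40) in the KO, where its difference from Stt3b was 0.17 (-0.68 to 1.02) and from Magt1 -0.83 (-1.52 to -0.14). With library totals every ratio of this contrast falls by 0.77, and 5 members were then called lower, where 40.8% of all genes were called, while the ratio of Magt1 turned to -0.12 and that of Rpn2 to -0.11. After LPS, as a description, the WT folds of RIP over Input were 5.25 for Ostc, 2.30 for Stt3a, 1.83 for Magt1, 1.31 for Rpn1, 1.25 for Stt3b, 0.533 for Rpn2 and 0.295 for Dad1. The KO folds after LPS were 3.12 for Rpn2, 1.75 for Ostc, 1.32 for Magt1, 0.694 for Stt3a and 0.328 for Rpn1. The RIPs enter both this comparison and that of the genotypes, so these values share libraries.

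**Figure D4:**
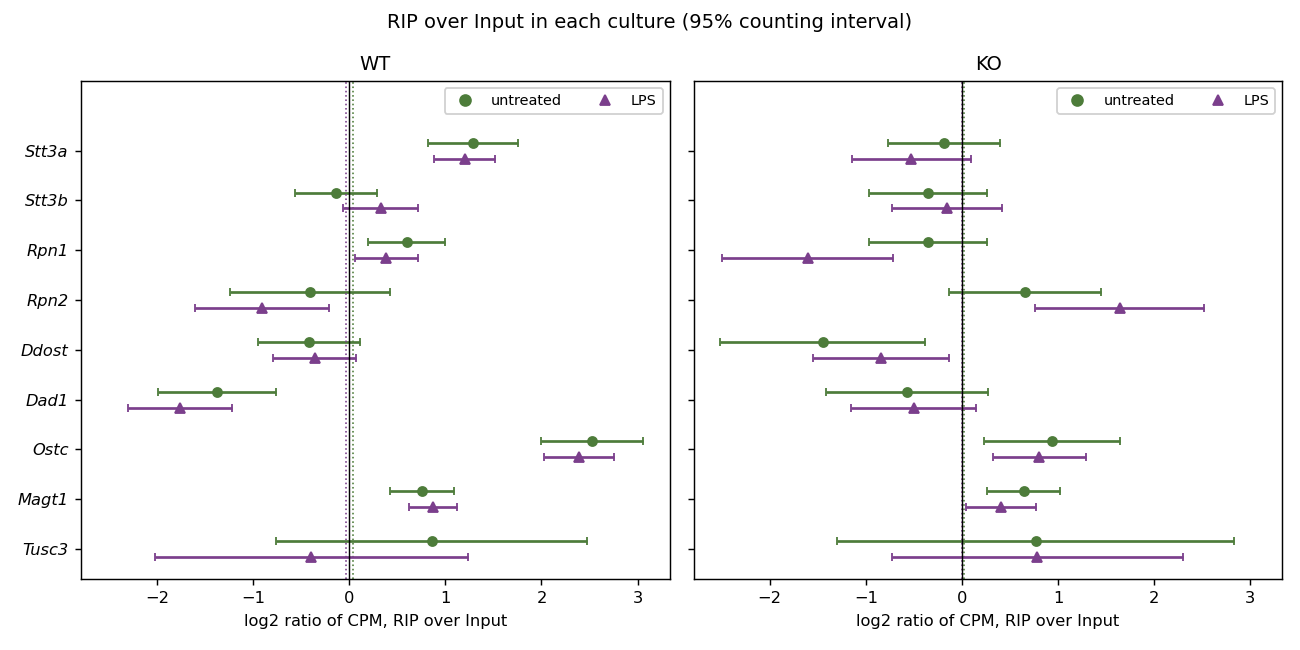
Log2 ratio of RIP over Input CPM for the lead region of each subunit in the WT and KO cultures, with 95% counting intervals. Circles are untreated and triangles LPS, and dotted lines mark the medians of all lead regions. Ostc (2.53 untreated) and Stt3a (1.29 untreated) lie to the right in the WT under both treatments, Magt1 lies to the right in both cultures, and Rpn2 with LPS lies at 1.64 in the KO.

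The values of Stt3a differed along the gene. In the untreated WT the log2 ratio of RIP over Input was 1.69 (0.99 to 2.39, adjusted p = 1.94e-05) in the nested 344-base region and 0.86 (0.24 to 1.48) in the rest of the 3580-base region, with intervals that overlapped. The 107-base region had 9 reads in the RIP and 17 in the Input, a ratio of -1.69 (-2.81 to -0.58, adjusted p = 0.0438), and was called lower by its unadjusted p of 0.00165. Its reads were 17 and 29 in the untreated Inputs (WT, KO), 48 and 40 in the LPS Inputs, 9 and 3 in the untreated RIPs and 18 and 4 in the LPS RIPs, so that it was low in all 4 RIPs, 4.59 to 7.22 CPM, against 18.3 to 26.6 CPM in the Inputs. The nested region held 40.9% (27.7 to 55.6) of the reads of the lead region in the untreated WT Input, 35.4% (26.6 to 45.2) in the untreated KO Input, 45.6% (36.3 to 55.2) in the WT LPS Input and 47.9% (36.7 to 59.3) in the KO LPS Input. In the WT RIPs it held 55.6% (48.6 to 62.4) untreated and 50.5% (45.0 to 56.0) with LPS, and in the KO RIPs 46.7% (30.2 to 63.9) and 28.6% (15.3 to 47.1). Between the genotypes with LPS, the ratio of the RIPs was 2.63 in the nested region and 1.38 (0.72 to 2.03) in the rest, as a description.

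Magt1 had its highest RIP over Input ratio in a nested region as well. Its nested 549-base region, at the upstream end of the 2943-base region, had a RIP over Input ratio of 2.03 (1.16 to 2.90, adjusted p = 2.04e-05) in the untreated WT, and the rest of the 2943-base region had 0.27 (-0.11 to 0.65). The nested region had only 11 reads in the untreated WT Input, against 36 in the untreated KO Input. In the untreated KO the ratios of the nested region and of the rest were 0.99 (0.27 to 1.72) and 0.55 (0.10 to 1.01). With LPS, as a description, they were 1.73 (1.14 to 2.32) and 0.57 (0.28 to 0.86) in the WT. In the KO with LPS they were 1.23 (0.48 to 1.97) and 0.11 (-0.33 to 0.55). The 549-base region held 33.3% (27.9 to 39.3) of the reads of the 2943-base region in the untreated WT RIP and 12.1% (6.89 to 20.4) in the untreated WT Input, and 30.5% (21.6 to 41.1) and 24.5% (18.2 to 32.0) in the RIP and Input of the untreated KO. For Dad1, the 3077-base region, which lies apart from the lead region and belongs to transcript Dad1-202, was low in the RIPs like the lead region, with a ratio of -1.67 (-2.51 to -0.84, adjusted p = 0.00123) in the untreated WT.

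The response of the subunit mRNAs to LPS was read from the Inputs. In the WT no member was called, and in the KO the shared subunits Rpn1 and Rpn2 were called lower. Of the members 0 of 8 tested were called in the WT and 2 of 9 in the KO. Among all genes 14.3% were called higher and 17% lower in the WT (31.3% in all), and 15.1% higher and 20.5% lower in the KO (35.6% in all), so the share of members called lower in the KO was near that of all genes. In the WT, 1 member had an unadjusted p under 0.05, Stt3b at -0.75 (-1.21 to -0.29, adjusted p = 0.0503), the edgeR exact tests called 0, and Benjamini-Hochberg adjustment called Stt3b. In the KO, 6 members had an unadjusted p under 0.05 by the chi-square test. The share of all genes under that p was not computed in either genotype. In the KO the log2 ratio of LPS over untreated was -0.82 (-1.27 to -0.36, adjusted p = 0.0140) for Rpn1, -1.35 (-2.20 to -0.50, called by its unadjusted p of 0.00105) for Rpn2, -0.65 (-1.09 to -0.22, adjusted p = 0.0933) for Stt3a and -0.65 (-1.09 to -0.20, adjusted p = 0.111) for Stt3b. Stt3a in the WT had 0.18 (-0.33 to 0.68), the WT value of Ostc was 0.14 (-0.47 to 0.75) and its KO value 0.61 (0.04 to 1.17), and Ddost, Dad1 and Magt1 lay between -0.38 and -0.02 in both genotypes, where other scalings turned some of these near 0 to the other sign. Both calls of the KO were lost with TMM scaling, with median-of-ratios scaling, which raises every ratio of this contrast by 0.20, and in both edgeR exact tests.

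Stt3a differed from the other catalytic subunit in its LPS change in the WT Inputs. Stt3a minus Stt3b was 0.93 (0.25 to 1.61) there and -0.01 (-0.63 to 0.61) in the KO Inputs. In the KO it was lower than Ostc, with a difference of -1.26 (-1.97 to -0.55), and in the WT the difference from Ostc was 0.03 (-0.76 to 0.83). The other 6 differences of Stt3a in each genotype had intervals that held 0. The LPS change of Stt3a itself was higher in the WT than in the KO by 0.83 (lower bound 0.17), and that of Rpn2 by 1.32 (0.17 to 2.47). The intervals of this difference held 0 for the other 7 members.

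**Figure D5:**
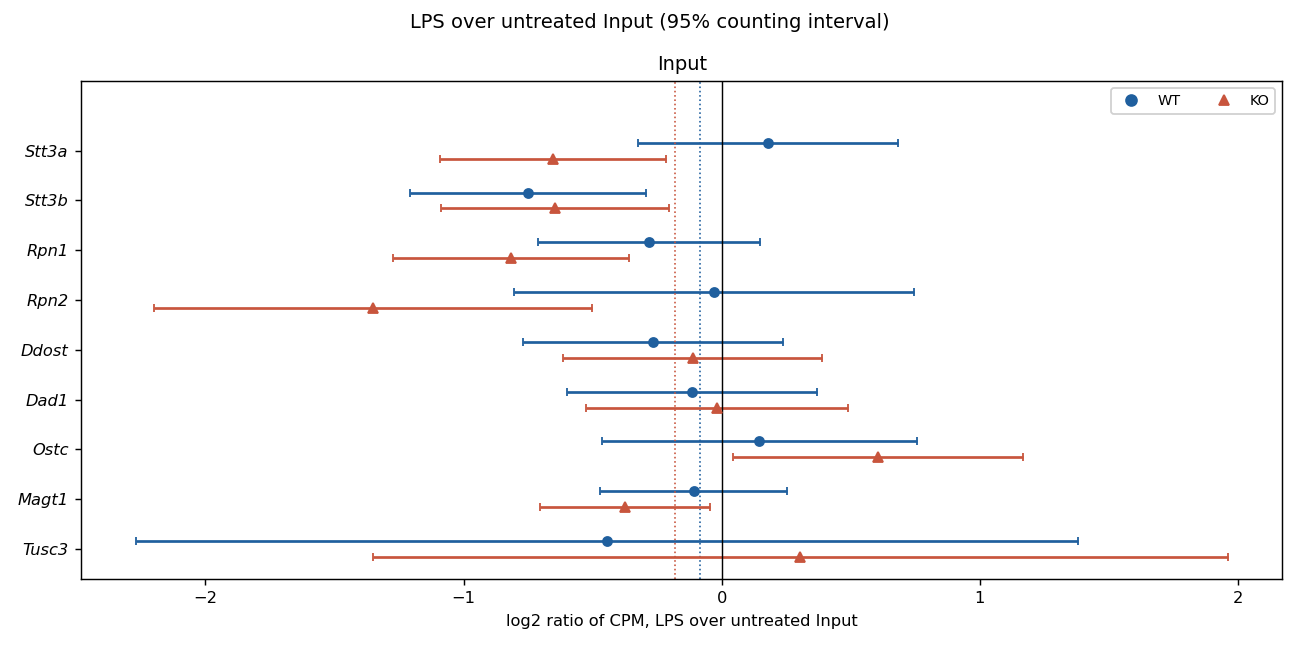
Log2 ratio of LPS over untreated CPM in the Inputs for the lead region of each subunit, with 95% counting intervals. Blue circles are WT and red triangles KO, and dotted lines mark the medians of all lead regions (-0.08 in the WT and -0.18 in the KO). Stt3a and Rpn2 lie further left in the KO than in the WT, and Stt3b lies left of 0 in both.

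Genes whose profile over the 8 libraries was most like that of Stt3a were sought among 5165 other genes whose lead region had at least 200 reads in all. By Pearson's r of log2(CPM + 1) over 8 libraries they were Kat6a (0.97), R3hdm2 (0.96), Samd1 (0.96), Mfsd1 (0.95) and Fnta (0.95). Within the complex, Rpn1 came nearest with 0.80, at place 145, followed by Magt1 (0.67, place 475), Ostc (0.63, place 596), Stt3b (0.50, place 1150) and Ddost (0.12, place 2421), and Rpn2 (-0.40) and Dad1 (-0.67) ran against it. These values describe 8 libraries that share cultures and differ in depth.

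The genes around OST in the ER were taken as 4 lists of 47 genes, namely 3 further OST subunits (Tmem258, Ost4 and Krtcap2), the makers of the lipid-linked sugar chain, the enzymes and chaperones that trim and check the glycan, and the translocon. The lists were chosen with earlier results of these data known, so the counts below are descriptions. In the untreated RIPs 6 of the 33 genes tested were higher in the WT and 0 lower, where 6.91% of all genes were called higher and 11.4% lower. Of the translocon list 4 of 6 tested were higher, among them Ssr2, a subunit of the translocon-associated protein complex, at 2.48 (1.29 to 3.66, 118 WT and 5 KO reads) and Sec61a1, which forms the translocon channel, at 1.39 (0.95 to 1.84, 420 and 44 reads). Against their own Inputs, Ssr2 and Sec61a1 were not called higher in the untreated WT RIP and were called lower in the untreated KO RIP. Of the makers of the sugar chain 2 of 17 were higher, among them Srd5a3, which makes the lipid dolichol, at 1.72 (0.60 to 2.83, 81 and 6 reads), and of the trimming enzymes 0 of 9. The median of the 33 lead regions was 0.26, against -0.10 over all lead regions. The further OST subunits had 1 gene tested and none called.

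In the Inputs 1 gene of 32 on these lists was called higher between the genotypes untreated and none of 37 with LPS, where 2.82% and 3.32% of all genes were called. With LPS, 3 genes were called higher and 3 lower of 33 in the WT, and 1 higher and 6 lower of 34 in the KO, where 31.3% and 35.6% of all genes were called. On the log2 scale Uggt1, the glucosyltransferase that senses misfolded glycoproteins, fell by 1.33 in the WT and 2.08 in the KO. Alg10b, which adds the last glucose to the sugar chain, had -1.17 in the WT Inputs and -1.86 in the KO Inputs. Edem3, of the group that trims mannose from misfolded glycoproteins, fell by 1.31 in the KO. Ssr3, of the translocon, rose by 1.49 (0.41 to 2.58) in the WT from 7 reads to 45. Against their own Inputs, 5 of 35 genes were called higher and 8 lower in the untreated WT RIP, and 2 and 8 of 33 in the untreated KO RIP. Of all genes 24.7% were higher and 22.8% lower in the WT, and 15.9% higher and 9.6% lower in the KO. The largest WT values were Man1b1, a mannosidase of the ER, at -1.76 (-2.17 to -1.36), Dpagt1, which starts the sugar chain, at -1.65 (-2.37 to -0.93) and Dhdds, of dolichol synthesis, at -1.60 (-2.08 to -1.13). In the KO they were Ssr2 at -2.61 (-3.80 to -1.42), Ganab, a glucosidase, at -1.57 (-2.14 to -0.99) and Mpdu1, which helps to use dolichol-linked sugars, at -1.23 (-2.24 to -0.22).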

How the data were processed

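RIP-seq and Input libraries of 1 WT and 1 KO culture, untreated or with LPS, were analysed from 4 deposited tables whose counts were identical. The authors aligned single-end reads to mm10 with Bowtie2 2.2.2, removed duplicates, called peaks with MACS 1.4.2 and counted overlaps with annotated 3′-UTRs. The deposited read counts are whole reads per region with both lanes summed. The deposited RPKM were used only to recover library totals. The 3′-UTR counts summed over rows, with a read counted in each row that it overlaps, came to 27.3% to 70.1% of these totals. The deposited region width is a length in bases. Columns with the authors' own comparisons (fold changes, p-values and peak scores of RIP against Input) were not used. Of 31117 rows, 495 carry no symbol (0.902% to 1.04% of the summed counts) and were left out.

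Each region holding 10 or more reads in a pair of libraries was tested against the remaining 3′-UTR reads with Pearson's chi-square (two-sided), and p-values were adjusted over all such regions by the method of Benjamini and Yekutieli. The cut-off values are those of the study's methods without its peak score criterion, but they were not applied in the same way. The study set them on RPKM fold changes and for enrichment only. Here they were applied in both directions, to ratios scaled to the 3′-UTR sums with 1 read added. The alternative with library totals is the scale of the deposited RPKM. Ratios add 1 read per library, and none is given where both had 3 or fewer. Intervals are normal for ratios and Wilson for shares, at 95%, and cover counting error only, since reads are not independent molecules. Tests were checked on simulated counts with counting error only, so that check does not cover variation between cultures. Alternatives used edgeR 4.0.16, DESeq2 1.42.0, other scalings, minimums and tests. Each gene is given by its lead region, and further regions with at least 10 reads in a library are named. From the lists around OST, the 3 called genes with the largest change among regions with at least 50 reads are named for each contrast. The members and lists were chosen with earlier results of these data known. Sequences came from GRCm38.p6 and exons from GENCODE M21.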

Additional observations from a re-analysis of the deposited data

Results flagged for a closer look

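For 5 results the counting interval of the difference between treatments or genotypes did not hold 0. With 1 library a group these intervals cover counting error alone, and the cause was not tested.

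The log2 ratio of WT over KO RIP was larger with LPS than untreated by 1.09 (0.31 to 1.86) for Stt3a, by 1.58 (0.55 to 2.60) for Rpn1 and by 0.62 (0.15 to 1.08) for Magt1. Stt3a was chosen by the LPS ratio that enters here, so its value is a description. The LPS ratio of Rpn1 rests on 11 reads in the KO RIP. With LPS the 3′-UTR reads summed over rows came to 31.8% of the library total in the KO RIP and 70.1% in the WT RIP, against 27.3% and 48.9% untreated. These sums count a read in each row that it overlaps, so they are not shares of reads. The part of this in the differences was not tested.

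The log2 ratio of LPS over untreated Input was higher in the WT than in the KO by 0.83 (lower bound 0.17) for Stt3a and by 1.32 (0.17 to 2.47) for Rpn2. For Rpn2 the WT Inputs held 19 reads untreated and 39 with LPS, and the KO Inputs held 35 and 15. For the Stt3a lead region the WT Inputs held 44 and 103 reads, and the KO Inputs 99 and 71. The Stt3a difference was computed for the lead region only. The LPS changes of the 344-base and 107-base regions of Stt3a had intervals that held 0 in each genotype.

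These differences were added after the data had been seen. They kept their sign, with an interval that did not hold 0, in all 25 values under 3 other scalings, a smaller number of added reads and repeated rows kept 1 time. Only differences with an interval off 0 were taken, and the reported interval widths were kept. A scaling also adds the same amount to every ratio of a contrast. The 25 values are therefore no independent check of the differences.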

How the results depend on the processing

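No paired analysis was possible because the replicate numbers of the labels are sequencing lanes, which the deposited columns sum. Of 77 alternative counts of members called, 60 stayed within 1.5 times the reported count. That compares the number of genes only, not which genes were called or in which direction. TMM in the untreated RIPs is among the 60, although Rpn2 lost its call and Stt3a gained a call. For the Inputs between the genotypes, and for most alternatives of the LPS change in the WT Inputs, 0 was compared with 0. The share of all genes called is given after each count. For WT over KO RIP in untreated cells (3 reported, 18.2%) the count was 6 with library totals (35.2%), 5 with Benjamini-Hochberg adjustment (22.2%), 1 in edgeR's exact test with a preset coefficient of variation of 0.2 (7.63%) and 0 with 0.4 (0.655%). For LPS over untreated Input in the WT (0 reported, 31.3%) Benjamini-Hochberg gave 1 (35.2%). In the KO (2 reported, 35.6%) it gave 4 (39.95%), TMM 0 (35.2%), median of ratios 0 (35.3%), library totals 1 (35.1%), no minimum of reads 1 (26.2%), and edgeR 0 with 0.2 (21.8%) and 0 with 0.4 (9.15%). For RIP over Input in the untreated WT (4 reported, 47.2%) edgeR with 0.4 gave 1 (10.03%). In the untreated KO (2 reported, 25.4%) library totals gave 5 (40.8%), a minimum of 50 reads 1 (29.3%), and edgeR 0 with 0.2 (13.1%) and 0 with 0.4 (3.11%).

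Of 535 alternative ratios of lead regions, 35 changed sign, 18 of them with library totals, and in 55 the interval came to hold 0 or ceased to. For 4 of the 35, all with library totals, the reported interval did not hold 0. These were 0.12 for Dad1 in WT over KO RIP with LPS, -0.28 for Magt1 in RIP over Input of the KO with LPS, -0.12 for Magt1 in the same ratio untreated and 0.028 for Rpn1 in LPS over untreated RIP of the WT. Library totals also moved the WT over KO RIP ratio of Stt3a with LPS to 3.06. Of 48 alternative differences between Stt3a and the other subunits, 2 changed sign and 1 its side of 0, all in the LPS change of the KO Inputs with the regions of a gene summed. Stt3a minus Magt1 became 0.05, Stt3a minus Stt3b 0.30 and the interval of Stt3a minus Rpn2 became 0.09 to 1.91. Members with under 50 reads in a pair, such as Tusc3, have intervals over 1 log2 unit wide, and no result has a replicate check.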
